A study of Mus musculus with 40 samples.

Results

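Untreated mammary tumours of MMTV-Wnt1 mice lacking p53 were set against untreated tumours of the same line lacking p21, which makes 12 of the 40 tumours of the series. They were chosen by the genotype and treatment in their titles, 6 tumours for each genotype. Tumours sharing a title number were averaged as 1 mouse, which gave 4 p53-null mice (m1556, m2119, m2493 and m881, with 2 tumours each from m1556 and m2493) and 5 p21-null mice (m4116, m4383, m4536, m4555 and m4539, with 2 tumours from m4116); mice are named by m and that number. The labels do not say that a shared number means 1 mouse, and deviations of the same-number tumours had correlations of -0.317 and -0.191 in p53-null and 0.12 in p21-null tumours, against medians of -0.229 and -0.195 for other pairs. Both groups carried the Wnt1 transgene, which the promoter of mouse mammary tumour virus drives in mammary epithelium, had formed tumours spontaneously and had received no drug. One group was null for Trp53, labelled "p53 null", and the other null for Cdkn1a, labelled "p21 null". Neither the exons that each allele lacks, nor the age of the mice, nor any strain background beyond the transgenic line could be read from the labels. Both genotypes were prepared with the same library kit, TruSeq RNA v2. Treated tumours of the same genotypes, from 5 p53-null and 9 p21-null other mice given doxorubicin at 4 mg/kg on each of 5 days, served as a second, separate look at the genotype difference.

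p53 is a transcription factor that DNA damage and other stresses stabilise. It induces genes for cell cycle arrest, apoptosis, DNA repair and metabolism. Its best known target is Cdkn1a, whose product p21 inhibits cyclin-dependent kinases and so lets the DREAM and RB complexes silence cell cycle genes. A p21-null tumour can therefore keep p53 and its other targets, while a p53-null tumour has lost the factor upstream of them all. In the mammary gland, loss of p53 is also known for speeding Wnt1-driven tumour growth and for permitting abnormal chromosome numbers.

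Values are in TPM, a length-normalised share of transcripts, rescaled in each tumour so that nuclear protein-coding genes alone make up the total. Differences are log2(TPM + 1) of p53-null minus p21-null mice with standard errors, and genes past the threshold are those with a limma adjusted p (Benjamini-Hochberg over 14166 genes) under 0.05. The p-values use 1 estimate of the spread per gene, from all 23 null mice, untreated and treated, and not from the 9 untreated mice alone. Before rescaling, nuclear protein-coding genes held 79.8% to 86.0% of TPM in p53-null and 84.2% to 86.2% in p21-null tumours. Genes above 0 numbered 22593 to 23639 in p53-null and 22288 to 22483 in p21-null tumours, without overlap, and the part of this in the gene counts below was not tested. Mammary epithelial markers were present throughout: summed luminal markers reached 4639 to 9425 TPM in p53-null and 6726 to 10997 TPM in p21-null mice, and summed basal markers 2402 to 5187 TPM in p53-null and 3220 to 4172 TPM in p21-null mice. In bulk tumours, fewer cells of a type and less RNA per cell cannot be told apart.

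The p53 half-site, the decamer that a dimer of p53 recognises, stands in the promoters of Ccng1 and Bax, 2 of the 7 p53 targets past the threshold, and of Cdkn1a. Each is shown 5′ to 3′ from 250 bases before to 50 bases after the gene's start (RefSeq, GRCm38.p6), with matches in capitals: Cdkn1a (plus strand, chr17:29090729-29091028), the gene targeted in one genotype, and Ccng1 (minus strand, chr11:40755237-40755536) and Bax (minus strand, chr7:45466849-45467148), which were lower in p53-null tumours.
Cdkn1a: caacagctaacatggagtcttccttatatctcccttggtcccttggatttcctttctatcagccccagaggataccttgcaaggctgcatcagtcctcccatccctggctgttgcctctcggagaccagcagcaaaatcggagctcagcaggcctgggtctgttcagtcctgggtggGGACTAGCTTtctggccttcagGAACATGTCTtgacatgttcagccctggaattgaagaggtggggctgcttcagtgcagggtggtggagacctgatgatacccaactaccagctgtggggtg
Ccng1: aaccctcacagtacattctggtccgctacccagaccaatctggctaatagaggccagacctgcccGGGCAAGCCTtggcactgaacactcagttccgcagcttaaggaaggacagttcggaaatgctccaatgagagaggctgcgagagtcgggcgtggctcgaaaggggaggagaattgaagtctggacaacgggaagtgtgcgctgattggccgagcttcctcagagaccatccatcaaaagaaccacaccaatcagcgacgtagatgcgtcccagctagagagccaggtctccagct
Bax: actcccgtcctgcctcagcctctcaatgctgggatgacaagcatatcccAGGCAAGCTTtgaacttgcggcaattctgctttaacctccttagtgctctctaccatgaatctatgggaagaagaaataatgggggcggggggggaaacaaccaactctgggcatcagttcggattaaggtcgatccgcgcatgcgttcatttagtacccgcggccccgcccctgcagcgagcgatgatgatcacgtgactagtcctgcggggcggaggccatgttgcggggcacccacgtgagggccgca
In Cdkn1a the matches begin 73 and 51 bases before the start, in Ccng1 185 bases and in Bax 201 bases before it. The half-site was searched by its consensus, which reads the same on both strands, and 8.36% of 32851 promoters of this length held it. It stood in 11 of the 45 tested p53 targets with a promoter sequence. A match is a description of the letters and not a measured binding site.

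Transcripts of each targeted gene were still counted in its own null group. Trp53 (chr11:69580359-69591873) was at 63.4, 85.5, 71.5 and 74.8 TPM in p53-null mice m1556, m2119, m2493 and m881, against 126.1, 119.6, 119.7, 95.2 and 128.3 TPM in p21-null mice m4116, m4383, m4536, m4555 and m4539. Every p53-null mouse was below every p21-null mouse, but the difference of -0.67 ± 0.17 (SE) missed the threshold (limma adjusted p = 0.0641, and 0.0477 when only these 2 groups were fitted). In treated mice it was -0.67 ± 0.14 and passed (adjusted p = 0.00362). Cdkn1a (chr17:29090976-29100727) was at 78.7, 17.8, 39.4 and 39.2 TPM in p53-null mice, against 78.4, 53.2, 74.3, 33.4 and 59.9 TPM in p21-null mice. The p21-null range lies inside the p53-null range, and the difference was -0.56 ± 0.39 (adjusted p = 0.546). Wnt1 (chr15:98789857-98793837), the ligand of the transgene, averaged 117.4 ± 71.4 TPM in p53-null and 114.1 ± 29.3 TPM in p21-null mice (SD, n = 4 and 5), a difference of -0.14 ± 0.37 (adjusted p = 0.903). Where an allele keeps exons their reads count toward the gene, so these levels do not check the genotypes.

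**Figure D1:**
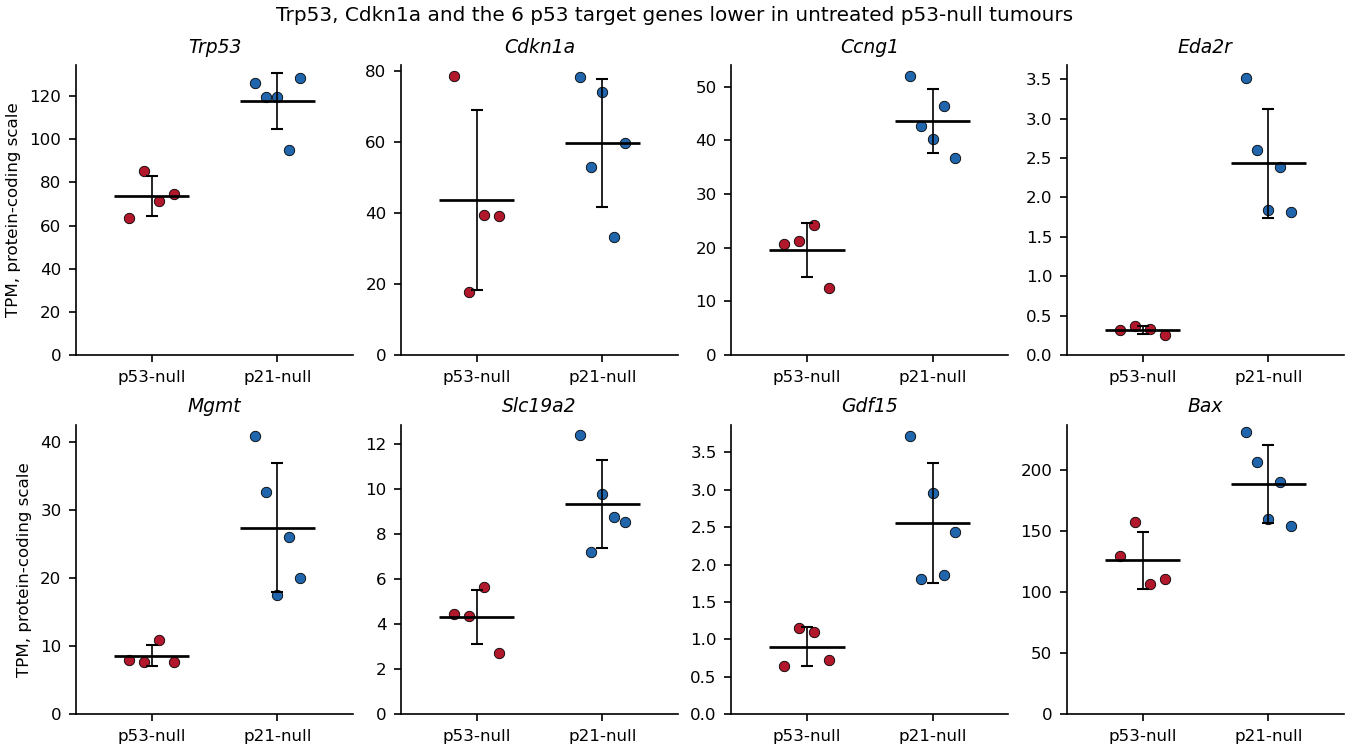
TPM on the protein-coding scale in each untreated mouse (points), with group means and SD (bars), for Trp53, Cdkn1a and the 6 listed p53 targets past the threshold; p53-null mice (n = 4) are left and p21-null mice (n = 5) right. Eda2r stands below 0.4 TPM in all p53-null mice and above 1.8 TPM in all p21-null mice, while Cdkn1a overlaps.

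Across all genes, 121 of 14166 passed the threshold (0.854%), 84 of them higher (0.593%) and 37 lower (0.261%) in p53-null tumours. Of these, 43 were higher and 14 lower by at least 2-fold. With median-of-ratios scaling the split was 90 higher and 64 lower. In 108 of the 121 the mice of the groups did not overlap, which held for 7.49% of all genes. The count rests on the mice and on the fit: without p53-null mouse m2119 it was 55, without p53-null mouse m2493 it was 211, without p21-null mouse m4116, m4536, m4555 or m4539 it was 73, 73, 64 or 75, and with only the 2 untreated groups in the fit it was 66, of which 46 were among the 121. The count of lower genes was 88 without m2493, and 18 to 23 without m2119 or any 1 p21-null mouse.

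Of 55 p53 target genes tested, 6 were lower in untreated p53-null tumours (0.261% of all genes were) and 1 was higher (0.593%). The other 48 did not pass, and the median of the 55 was -0.15 against 0.03 for all genes. The 6 were Ccng1, Eda2r, Mgmt, Slc19a2, Gdf15 and Bax. Gdf15 and Bax were named after their values were seen. With only the 2 untreated groups fitted 3 targets were lower, and Slc19a2, Gdf15 and Bax did not pass. Groups did not overlap for 11 of the 55, against 7.49% of all genes.

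Ccng1 (chr11:40748552-40755311), an atypical cyclin encoded by a p53 target gene, was at 20.7, 21.2, 24.2 and 12.4 TPM in p53-null mice m1556, m2119, m2493 and m881, against 52.0, 42.7, 40.3, 46.4 and 36.6 TPM in p21-null mice. No p53-null mouse reached the lowest p21-null mouse, and the difference was -1.14 ± 0.18 (limma adjusted p = 0.00168). Mouse m881, the lowest, also had a chromosome 11 median of -0.39 (below).

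Eda2r (chrX:97333840-97377216), a receptor of the tumour necrosis factor receptor family, was at 0.323, 0.363, 0.325 and 0.249 TPM in p53-null mice, against 3.51, 2.61, 1.84, 2.39 and 1.81 TPM in p21-null mice. It was near the bottom of the range in every p53-null mouse, with means 7.72-fold higher in p21-null mice and a difference of -1.36 ± 0.22 on the log2(TPM + 1) scale (adjusted p = 0.00307). The scale understates such low genes, and with a pseudocount of 5 the call was lost.

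Mgmt (chr7:136894614-137130266), which removes methyl groups from guanine in DNA, was at 8.02, 7.67, 10.9 and 7.72 TPM in p53-null mice, against 40.9, 32.7, 17.6, 26.0 and 19.99 TPM in p21-null mice. The groups did not overlap, and p21-null mice varied more (-1.52 ± 0.27, adjusted p = 0.00761). Slc19a2 (chr1:164249046-164265385), a thiamine transporter, was at 4.46, 4.33, 5.65 and 2.73 TPM in p53-null mice, against 12.4, 7.19, 9.78, 8.76 and 8.52 TPM in p21-null mice. It did not overlap either (-0.97 ± 0.18, adjusted p = 0.00811).

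Gdf15 (chr8:70629393-70632456), a stress-induced cytokine, averaged 0.905 ± 0.260 TPM in p53-null and 2.56 ± 0.80 TPM in p21-null mice (SD), a difference of -0.88 ± 0.20 (adjusted p = 0.0316) that no longer passed when any 1 of 6 of the mice was left out. Bax (chr7:45461697-45466898), which permeabilises mitochondria in apoptosis, was at 129.9, 157.7, 106.6 and 110.6 TPM in p53-null mice, against 231.1, 206.4, 160.4, 190.7 and 154.3 TPM in p21-null mice. Mouse m2119 overlapped the lowest p21-null mouse, and the difference of -0.58 ± 0.12 (adjusted p = 0.0159) did not pass without p21-null mouse m4116.

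The listed target that went the other way was Tap1, the peptide transporter of MHC class I, which lies in the MHC region and is described with that group below. Many well known targets did not pass. The apoptosis genes Bbc3 and Pmaip1 were at -0.26 and -0.19, the phosphatase gene Ppm1d at 0.02, the antiproliferative gene Btg2 at -0.01 and the growth arrest gene Gadd45a at -0.67. Aen, an exonuclease, was at -0.64, Zmat3, an RNA-binding protein, at -0.68, and Ephx1, an epoxide hydrolase, at -0.73 with no overlap between mice. Mdm2, the ubiquitin ligase that degrades p53, was at 0.33 ± 0.51 (adjusted p = 0.822), with a single p53-null mouse far above the rest (below).

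The same 55 genes separated the genotypes far more in treated mice: 32 were lower in p53-null, 0 were higher and the median was -1.07 against 0.16 for all genes, where 4.8% of genes were lower. The difference between the untreated and the treated genotype contrast was itself past the threshold for all 6 lower targets. It was 2.36 ± 0.29 for Eda2r (limma adjusted p = 6.28e-05), 1.71 ± 0.23 for Ccng1 (adjusted p = 0.000196), 1.86 ± 0.36 for Mgmt (adjusted p = 0.00942) and 1.17 ± 0.23 for Slc19a2 (adjusted p = 0.0131). Ccng1 averaged 27.7 ± 5.3 TPM in treated p53-null and 206.8 ± 38.9 TPM in treated p21-null mice (SD, n = 5 and 9). Gdf15 averaged 1.09 ± 0.19 TPM and 24.5 ± 6.3 TPM in the same groups, and its difference between contrasts was 2.70 ± 0.26 (adjusted p = 1.56e-06). For Cdkn1a the treated difference was -2.43 ± 0.33, and the difference between contrasts, 1.87 ± 0.51, did not pass (adjusted p = 0.153).

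Of the 121 untreated calls, 82 also passed in treated mice in the same direction, which is 67.8% of the untreated and 2.94% of the 2790 treated calls (19.7% of genes). None was called in opposite directions, and 116 had the same sign. The contrasts share no mouse, although they share 1 estimate of the spread. The treated calls were 2110 higher (14.9%) and 680 lower (4.8%), but 1149 higher and 1321 lower with median-of-ratios scaling, where the median of all genes was 0.01 in place of 0.16. The difference between contrasts passed for 78 genes (0.551%), 76 higher (0.536%) and 2 lower (0.0141%), 8 of them among the 121.

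**Figure D2:**
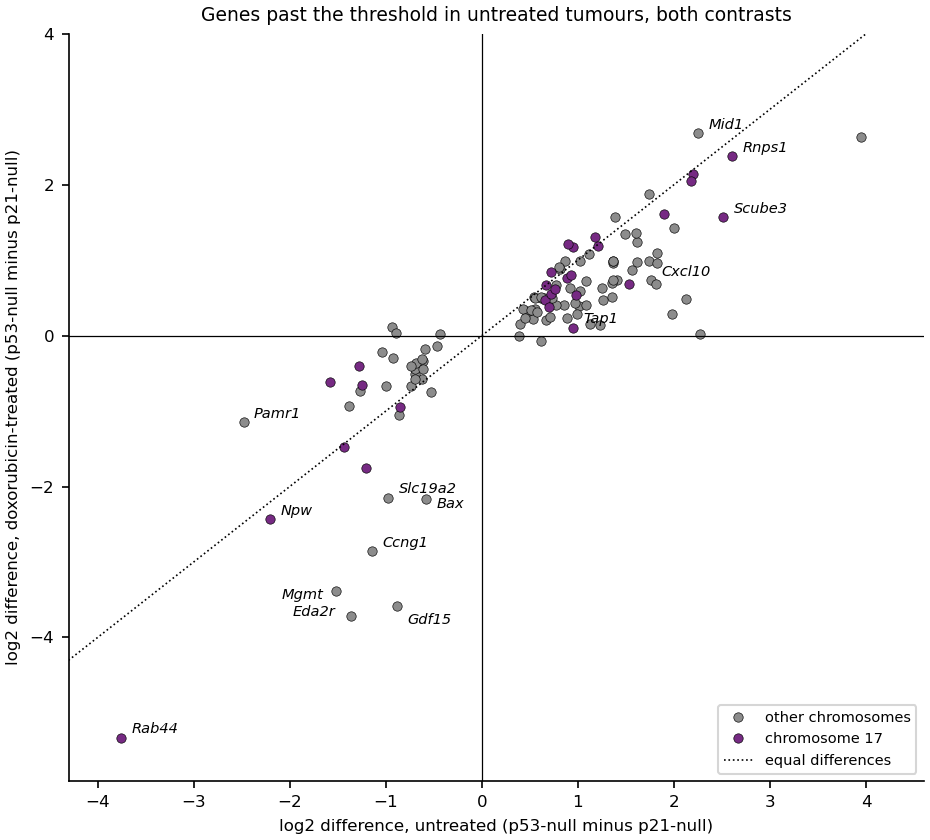
Log2 difference between p53-null and p21-null tumours in untreated mice (horizontal) and in other, doxorubicin-treated mice (vertical) for the 121 genes past the threshold in untreated mice; points on the dotted line differ equally. None of the 121 was called in opposite directions, and Eda2r, Mgmt, Ccng1, Gdf15 and Bax lie below the line.

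Chromosome 17 held more calls than any other, and it carries Cdkn1a. Of its 706 genes 28 passed (3.97%), against 93 of 13460 elsewhere (0.691%). Within 10 Mb of Cdkn1a 20 of 368 passed (5.43%), and within 3 Mb 6 of 83 (7.23%). With only the 2 untreated groups fitted the 10 Mb count was 13. Apart from Cyp1b1, a cytochrome P450 gene named after its values were seen, the calls of the chromosome start between 6.43 and 34.2 Mb, a stretch with 327 tested genes. There 19 were higher and 8 lower in p53-null tumours, and 24 of the 27 were called in treated mice in the same direction, against 58 of 93 on the other chromosomes. Around Trp53 on chromosome 11, 0 of 303 genes within 10 Mb passed and 2 of 510 within 20 Mb (0.392%), below the share over all genes. With only the 2 untreated groups in the limma fit 1 of the 303 passed, Trp53 itself. The 4 nearest calls on chromosome 11 were Trim11, a ubiquitin ligase (-0.86 ± 0.16, adjusted p = 0.00884), the interferon-induced GTPases Ifi47 (1.37 ± 0.27, adjusted p = 0.0147) and Tgtp2 (1.37 ± 0.30, adjusted p = 0.0291), and Ccl5, given below. With only the 2 untreated groups fitted Trim11, Ifi47 and Tgtp2 did not pass (limma adjusted p = 0.0684, 0.1003 and 0.0686), and Ifi47 did not pass without m2119 or Tgtp2 without any 1 of 5 of the mice. Any DNA near Cdkn1a that differs between the groups and the loss of the gene itself cannot be told apart in this design.

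Rab44 (chr17:29114145-29148980), a member of the Rab GTPase family whose gene lies 13.4 kb from Cdkn1a, had the largest fall. It was at 1.40, 0.814, 0.593 and 0.735 TPM in p53-null mice, against 31.4, 23.1, 30.6, 16.4 and 22.2 TPM in p21-null mice. The p21-null mean was 28.0-fold higher, and the difference was -3.75 ± 0.20 (limma adjusted p = 1.57e-11). In treated mice the means were 1.18 TPM in p53-null and 85.4 TPM in p21-null, a difference of -5.33 ± 0.16, and the change between contrasts, 1.57 ± 0.26, passed as well (adjusted p = 0.00169).

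Scube3, Glo1 and Hmga1 were the next nearest to Cdkn1a among those past the threshold. Scube3 (chr17:28142141-28174854), a secreted protein with EGF-like domains, was at 10.2, 10.7, 3.05 and 25.7 TPM in p53-null mice and between 0.681 and 1.13 TPM in p21-null mice (2.51 ± 0.53, adjusted p = 0.0209). The groups stood far apart, but the call was lost without m2119, m881 or m4383. Glo1 (chr17:30584936-30626871), the glyoxalase that clears methylglyoxal, was at 103.6, 93.4, 98.0 and 95.2 TPM in p53-null mice and between 163.4 and 189.2 TPM in p21-null mice. Both groups were narrow and did not overlap (-0.85 ± 0.09, adjusted p = 9.45e-06). Hmga1, an AT-hook chromatin protein, was at 2.17 ± 0.29 (adjusted p = 0.000168), but it has near-identical copies, so its reads may be shared.

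**Figure D3:**
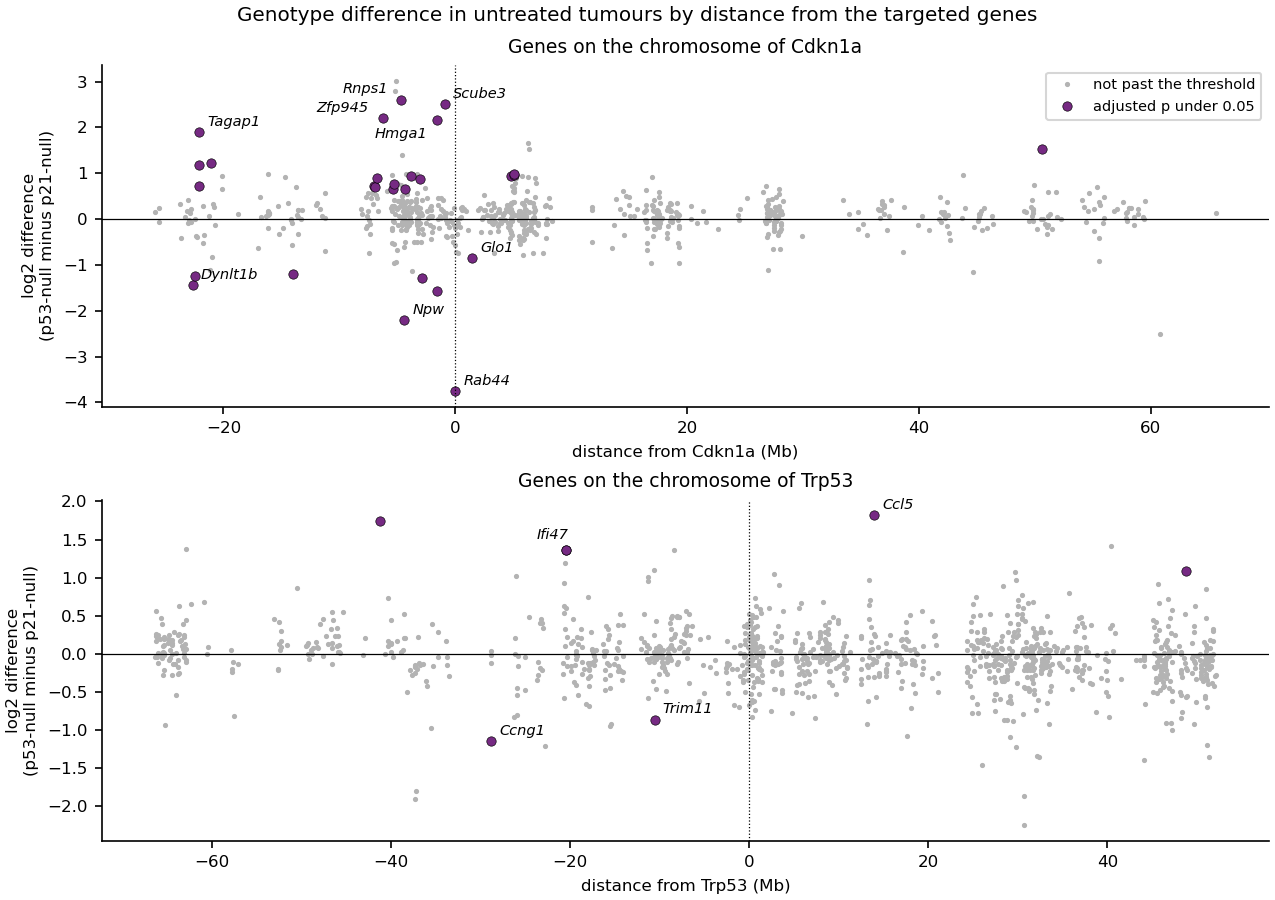
Log2 difference between untreated p53-null and p21-null tumours for each tested gene on the chromosome of Cdkn1a (top) and of Trp53 (bottom), by distance from that gene in Mb; large points passed the threshold. Apart from Cyp1b1 at 50.6 Mb, the calls of the top panel lie between -22.7 and 5.10 Mb, and none lies within 10 Mb of Trp53.

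Further from Cdkn1a, and with predicted genes left out, Rnps1, which encodes a protein of the exon junction complex, had the largest rise among the named genes past the threshold. It was at 129.9 to 156.0 TPM in p53-null mice and at 18.5 to 25.6 TPM in p21-null mice (2.61 ± 0.29, adjusted p = 1.45e-05), 4.67 Mb from Cdkn1a. The zinc finger gene Zfp945 (2.20 ± 0.27) and Tagap1, related to T cell activation GTPase activators (1.90 ± 0.19), were also higher. The neuropeptide gene Npw (-2.21 ± 0.38), the dynein light chains Dynlt1b (-1.43 ± 0.16) and Dynlt1c (-1.25 ± 0.23), the G protein regulator Rgs11 (-1.28 ± 0.25) and Ermard, an endoplasmic reticulum membrane protein (-1.20 ± 0.18), were lower. Rnps1, Tagap1 and the Dynlt1 genes have near-identical copies, so their levels are uncertain. Rgs11 did not pass without m2119 or with only the 2 untreated groups fitted.

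Away from chromosome 17, Mid1, a microtubule-associated ubiquitin ligase on the X chromosome, was higher at 38.4, 149.7, 40.1 and 66.5 TPM in p53-null mice, against 11.4 to 14.1 TPM in p21-null mice (2.25 ± 0.52, adjusted p = 0.0346). Lars2, the mitochondrial leucyl-tRNA synthetase, was at 684 to 898 TPM in p53-null and 156 to 242 TPM in p21-null mice (2.005 ± 0.27, adjusted p = 0.00022). Cnmd, a cartilage glycoprotein (2.12 ± 0.46), Dpysl5, a neuronal phosphoprotein (1.98 ± 0.41), and Derl3, of endoplasmic reticulum-associated degradation (1.83 ± 0.28), were higher too. Cnmd and Dpysl5 were uneven among p53-null mice, with 1.77 to 20.1 TPM and 1.78 to 24.0 TPM. Lower genes were Pamr1, a secreted protein linked to muscle regeneration (-2.48 ± 0.59), Rpl22l1, a paralogue of ribosomal protein Rpl22 that shares sequence with processed copies (-1.38 ± 0.13), and Slc5a8, a transporter of short-chain fatty acids (-1.27 ± 0.20). Mid1, Cnmd, Dpysl5 and Pamr1 each lost the call without 1 or another of 3 to 7 of the mice, Mid1 also with all 6 groups fitted, and Cnmd, Dpysl5 and Pamr1 with only the 2 untreated groups fitted. Lars2 did not pass with all 6 groups fitted, which include wild-type tumours made with another kit. Derl3, Slc5a8, Mid1 and Pamr1 did not pass with tumours as separate samples or with the mouse as a random effect. Derl3 was at 4.11 TPM in the first tumour of m1556 and 4.83 TPM in the first of m2493, inside the range of the p21-null tumours, but at 133.4 TPM in the second of m2493. Slc5a8 was at 53.3 TPM in the first tumour of m2493, inside its p21-null range, and at 9.57 TPM in the second. In the same 2 tumours Mid1 was at 108.8 and 14.4 TPM and Pamr1 at 57.2 and 1.48 TPM. Mid1 in the second and Pamr1 in the first were inside the range of the p21-null tumours.

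Genes of the interferon response differed in 1 direction. Of 33 interferon-stimulated genes tested, 3 were higher (0.593% of all genes were), none was lower and 30 did not pass, all 33 differences were positive under the scalings and fits tried, and the median was 0.92 against 0.03 for all genes, 54.69% of which were positive. The core of the interferon-stimulated response element, TTTC and TTTC with any 2 bases between, searched on both strands (GAAA and GAAA on the other), stood in 16 of the 25 members with a promoter sequence and in 3.44% of all 32851 promoters. It is shown for the called members Ifit3 (plus strand, chr19:34583279-34583578) and Cxcl10 (minus strand, chr5:92348840-92349139), and for B2m (plus strand, chr2:122147437-122147736), with matches in capitals. B2m is the 1 of 4 called MHC class I genes that holds it, and 5 of the 19 members of that list with a promoter sequence do. None of these 3 holds a p53 half-site, and the p53 promoters printed above hold no such element.
Ifit3: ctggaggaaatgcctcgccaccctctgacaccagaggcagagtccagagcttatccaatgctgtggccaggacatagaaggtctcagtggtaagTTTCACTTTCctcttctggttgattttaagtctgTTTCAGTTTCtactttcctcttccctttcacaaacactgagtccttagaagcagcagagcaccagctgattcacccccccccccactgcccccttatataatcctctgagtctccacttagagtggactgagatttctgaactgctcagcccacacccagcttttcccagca
Cxcl10: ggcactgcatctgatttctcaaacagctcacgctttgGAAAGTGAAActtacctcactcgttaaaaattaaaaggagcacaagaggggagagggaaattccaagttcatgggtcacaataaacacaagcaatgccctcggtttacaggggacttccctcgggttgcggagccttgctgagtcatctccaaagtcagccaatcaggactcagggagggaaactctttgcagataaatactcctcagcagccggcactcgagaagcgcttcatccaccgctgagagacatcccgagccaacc
B2m: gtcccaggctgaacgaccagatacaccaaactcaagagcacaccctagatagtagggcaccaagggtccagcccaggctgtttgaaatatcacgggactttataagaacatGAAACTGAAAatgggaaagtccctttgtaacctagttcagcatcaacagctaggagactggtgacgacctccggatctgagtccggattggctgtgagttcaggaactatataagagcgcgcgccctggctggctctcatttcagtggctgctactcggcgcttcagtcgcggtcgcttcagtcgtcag
The matches begin 156 and 122 bases before the start in Ifit3, 213 in Cxcl10 and 139 in B2m.

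Cxcl10, a chemokine that attracts T cells, was at 24.6, 44.9, 21.5 and 11.6 TPM in p53-null mice m1556, m2119, m2493 and m881, against 5.78, 9.45, 4.10, 5.09 and 7.25 TPM in p21-null mice (1.76 ± 0.32, limma adjusted p = 0.00761). Ifit3, an antiviral effector with a near-identical copy that makes its level uncertain, was at 68.4, 51.0, 58.4 and 18.4 TPM in p53-null mice, against 14.5, 10.7, 11.5, 8.85 and 18.9 TPM in p21-null mice (1.74 ± 0.34, adjusted p = 0.0114). Mouse m881 was the lowest p53-null mouse for both, and for Ifit3 it fell inside the p21-null range. Zbp1, a sensor of left-handed nucleic acids, was higher as well (1.09 ± 0.26, adjusted p = 0.0480), but lost the call without any 1 of 8 of the mice. Members that did not pass included Isg15, a ubiquitin-like protein (1.29), and Stat2, a transcription factor of the response (0.27). The guanylate-binding Gbp3 was at 1.26.

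Which members passed depended on the mice and the fit. Summed over the 33 genes, p53-null mice m1556, m2119, m2493 and m881 had 3158, 1714, 2308 and 975 TPM, against 784 to 1170 TPM in p21-null mice. Mouse m881 alone fell inside the p21-null range. Without it 19 members were higher, without mouse m2119 1 was, without m1556, m2493 or any p21-null mouse but m4383 2 were, and with only the 2 untreated groups fitted 0 were.

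MHC class I presentation genes, which cut, carry and display peptides to T cells, went the same way. Of 22 tested, 4 were higher (0.593% of all genes were), none was lower and the median was 0.64. B2m, the invariant light chain, was at 3105, 3071, 2296 and 1310 TPM in p53-null mice, against 1130, 1672, 928, 1011 and 1103 TPM in p21-null mice (1.02 ± 0.22, limma adjusted p = 0.0252). Among the mice again only m881 overlapped. The second tumour of m2493 was at 1378 TPM, inside the range of the p21-null tumours, and the first at 3827 TPM. B2m lost the call without any 1 of 6 of the mice and with only the 2 untreated groups fitted. It also did not pass with tumours as separate samples or with the mouse as a random effect. The peptide transporter Tap1 was at 100.4, 70.4, 74.3 and 56.1 TPM in p53-null mice, against 45.8, 42.8, 30.4, 31.7 and 39.6 TPM in p21-null mice, without overlap (0.95 ± 0.19, adjusted p = 0.0137). Tapbp, which bridges it to MHC (0.93 ± 0.17), and the immunoproteasome subunit Psmb8 (0.98 ± 0.22) were also higher. Psmb8 lost the call without any 1 of 6 of the mice and Tap1 without m1556, and both with only the 2 untreated groups fitted. Tap1, Tapbp and Psmb8 lie 4.82 to 5.10 Mb from Cdkn1a in the stretch of chromosome 17 described above, and B2m lies on chromosome 2. The classical heavy chains H2-K1, on that stretch, and H2-D1, just beyond it, were at 0.72 and 0.61 without passing. Of 11 MHC class II genes none passed, all were positive (54.69% of all genes were) and the median was 0.59. Without mouse m1556 the class I count was 1, without m2119, m4536, m4555 or m4539 it was 2, without m881 it was 8, and with only the 2 untreated groups it was 1.

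Markers of T cells were higher in sum, and those of other blood cells overlapped. Summed over 18 genes, T cell markers were at 30.8, 41.7, 30.9 and 58.7 TPM in p53-null mice m1556, m2119, m2493 and m881, against 15.5 to 22.5 TPM in p21-null mice, without overlap. All 14 tested T cell markers were positive (54.69% of all genes were), with a median of 0.57. Of the 14, 1 was called higher (0.593% of all genes were), the kinase gene Lck (1.25 ± 0.29, limma adjusted p = 0.0389). Mouse m881, which had the highest T cell sum, had the lowest sum of interferon-stimulated genes in its group. The chemokine Ccl5, made by T cells among others, was at 30.0 to 40.7 TPM in p53-null mice and 5.91 to 12.4 TPM in p21-null mice (1.82 ± 0.41, adjusted p = 0.0312). Summed macrophage markers overlapped, at 3580 to 5360 TPM in p53-null and 3993 to 5090 TPM in p21-null mice. Summed red blood cell markers were at 363 to 2842 TPM in p53-null and 898 to 12943 TPM in p21-null mice, also with overlap. Lck and Ccl5 each lost the call without any 1 of 7 of the mice. The part of T cells in the interferon and MHC values was not tested.

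**Figure D4:**
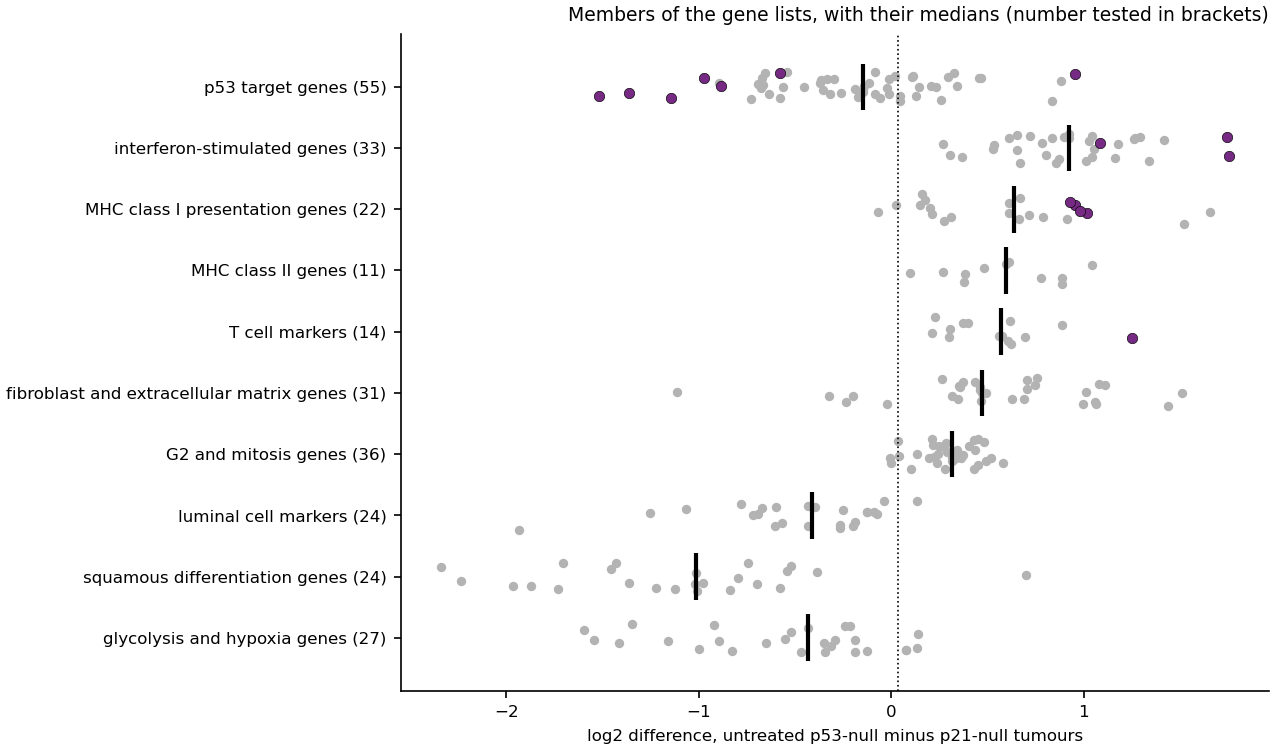
Log2 difference between untreated p53-null and p21-null tumours for each tested member of 10 gene lists; large points passed the threshold, bars are list medians and the dotted line is the median of all genes. The interferon-stimulated genes lie wholly to the right of 0, and 23 of 24 luminal markers lie to its left without passing.

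Fibroblast and matrix genes gave summed levels of 4008 to 4804 TPM in p53-null and 1807 to 3509 TPM in p21-null mice, again without overlap. Of 31 members none passed, 26 were positive (54.69% of all genes were) and the median was 0.47. In limma 9 of the 31 were at an unadjusted p under 0.05, against 1987 of 14166 genes. The nearest to the threshold was Fap, a fibroblast surface protease (14.0 ± 4.8 TPM in p53-null and 5.97 ± 1.49 TPM in p21-null mice, adjusted p = 0.1004), and the collagens Col6a1 and Col6a2 were at 1.44 and 1.51.

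Epithelial lists lay the other way. Of 24 luminal markers none passed and 1 was positive (median -0.41), where 54.69% of all genes were positive. The secreted Lcn2 was at -1.25 ± 0.43 (limma adjusted p = 0.179). Of 24 squamous differentiation genes none passed and 1 was positive (median -1.02), with Krt6b, a keratin of stressed epithelium, at -1.96 ± 0.80. Among 19 epithelial-mesenchymal transition genes 1 passed (0.854% of all genes did), the epithelial splicing factor Esrp2, which was lower (-0.90 ± 0.21, adjusted p = 0.0436). Esrp2 was at 47.5, 22.9, 35.7 and 21.9 TPM in p53-null mice, against 61.3, 51.6, 66.6, 46.1 and 64.5 TPM in p21-null mice, and its lowest mice, m2119 and m881, are those in which chromosome 8, where it lies, had a low median. The call was lost without any 1 of 7 of the mice. Milk protein genes had a median of 1.08 without a call, and mouse m2493 stood apart with a sum of 9722 TPM, against 865 to 1080 TPM in the other p53-null mice and 1222 to 1907 TPM in p21-null mice. The milk gene Csn1s2a was at 11596 TPM in the second tumour of m2493 (labelled with the suffix ra) and 29.1 TPM in the first. Glycolysis and hypoxia genes had a median of -0.43 over 27 members, and none passed.

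Among Wnt genes, Lef1, a transcription factor that carries the signal to DNA and is itself a target, was higher at 2.31, 2.33, 2.83 and 3.91 TPM in p53-null mice, against 0.271 to 0.540 TPM in p21-null mice (1.41 ± 0.26, adjusted p = 0.00811). The receptor Fzd9 was at 4.68 to 12.2 TPM in p53-null and 1.38 to 2.34 TPM in p21-null mice (1.604 ± 0.37, adjusted p = 0.0327). In mouse m2493 Fzd9 was at 0.90 TPM in the first tumour, below every p21-null tumour, and at 15.98 TPM in the second. Others did not pass: the feedback gene Axin2 was at -0.31 and the antagonist Wif1 at 0.09. The stem cell receptor Lgr5, at 1.21, went the same way as Lef1 without passing (limma adjusted p = 0.335). The medians were -0.02 over 25 ligands and receptors and 0.03 over 29 targets. In limma 3 of the 25 and 6 of the 29 were at an unadjusted p under 0.05, against 1987 of 14166 genes. Groups did not overlap for 8% of the 25 and 13.8% of the 29, against 7.49% of all genes. In the Notch and Hedgehog list 1 of 19 passed (0.854% of all genes did), the Notch target Heyl (1.39 ± 0.31, adjusted p = 0.0312). Fzd9 and Heyl lost the call without any 1 of 8 and of 7 of the mice, and Lef1 kept it whichever mouse was left out. Fzd9 also did not pass with tumours as separate samples or with the mouse as a random effect.

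No gene of the cell cycle lists passed. Of 36 G2 and mitosis genes, which DREAM silences when p21 is present, none passed in limma (0 at an unadjusted p under 0.05). Still, 34 of the 36 were positive (54.69% of all genes were), with a median of 0.32. This depended on the mice and the fit: 29 were positive without m2119 (median 0.17) and 36 without m2493 (median 0.45). With sample weights 27 were positive (median 0.06). The kinase Cdk1 was at 209.5 to 278.9 TPM in p53-null and 127.2 to 208.6 TPM in p21-null mice (0.58 ± 0.31, adjusted p = 0.408). The first tumours of m1556 and m2493 were at 166.6 and 123.5 TPM, inside the range of the p21-null tumours. The second were at 263.5 and 628.2 TPM. The median was 0.06 over 37 G1/S and replication genes, 0.04 over 34 DNA repair genes and 0.04 over 31 apoptosis regulators, with no call in any of these lists and 2, 1 and 4 members at an unadjusted p under 0.05. The cyclin gene Ccnd2 was at 1.296 and the inhibitor genes Cdkn2a and Cdkn1c at 1.10 and 1.21 without passing. Over 25 genes of the p53 family, CDK inhibitors and RB family the median was 0.12 and none passed. In limma 8 of these 25 were at an unadjusted p under 0.05, against 1987 of 14166 genes. Groups did not overlap for 5 of the 25 (20%), against 7.49% of all genes.

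The p53-null tumours differed more among themselves. The median SD over mice of a gene's log2 value was 0.29 in p53-null and 0.19 in p21-null mice, and 74.0% of genes varied more in p53-null mice. Some of the variation ran by chromosome. Taking the median deviation of the genes of each chromosome in each tumour, 13 of 120 values were past 0.2 in p53-null tumours and 0 of 120 in p21-null tumours. In the second tumour of mouse m1556 chromosome 10 stood at -0.51 and chromosome 13 at -0.38, while in the first tumour of that mouse they were within 0.2. In mouse m2119 chromosome 12 stood at -0.49 and chromosome 8 at -0.34, and in mouse m881 chromosome 8 at -0.49 and chromosome 11 at -0.39. Whether DNA copy number differed was not measured in these files.

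Chromosome 8 had a median difference of -0.25 over 747 genes. Its 10 calls (1.34%, against 0.854% of all genes), Gdf15 and Esrp2 among them, were lower. Chromosome 5 had a median of 0.15 over 863 genes. Its 13 calls (1.51%), Cxcl10, Fzd9 and Dpysl5 among them, were higher. Chromosome 10 had a median of -0.05, and its 11 calls (1.65%) were 4 higher and 7 lower. The part of the chromosome-wide shifts of chromosomes 8 and 5 in the calls was not tested.

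**Figure D5:**
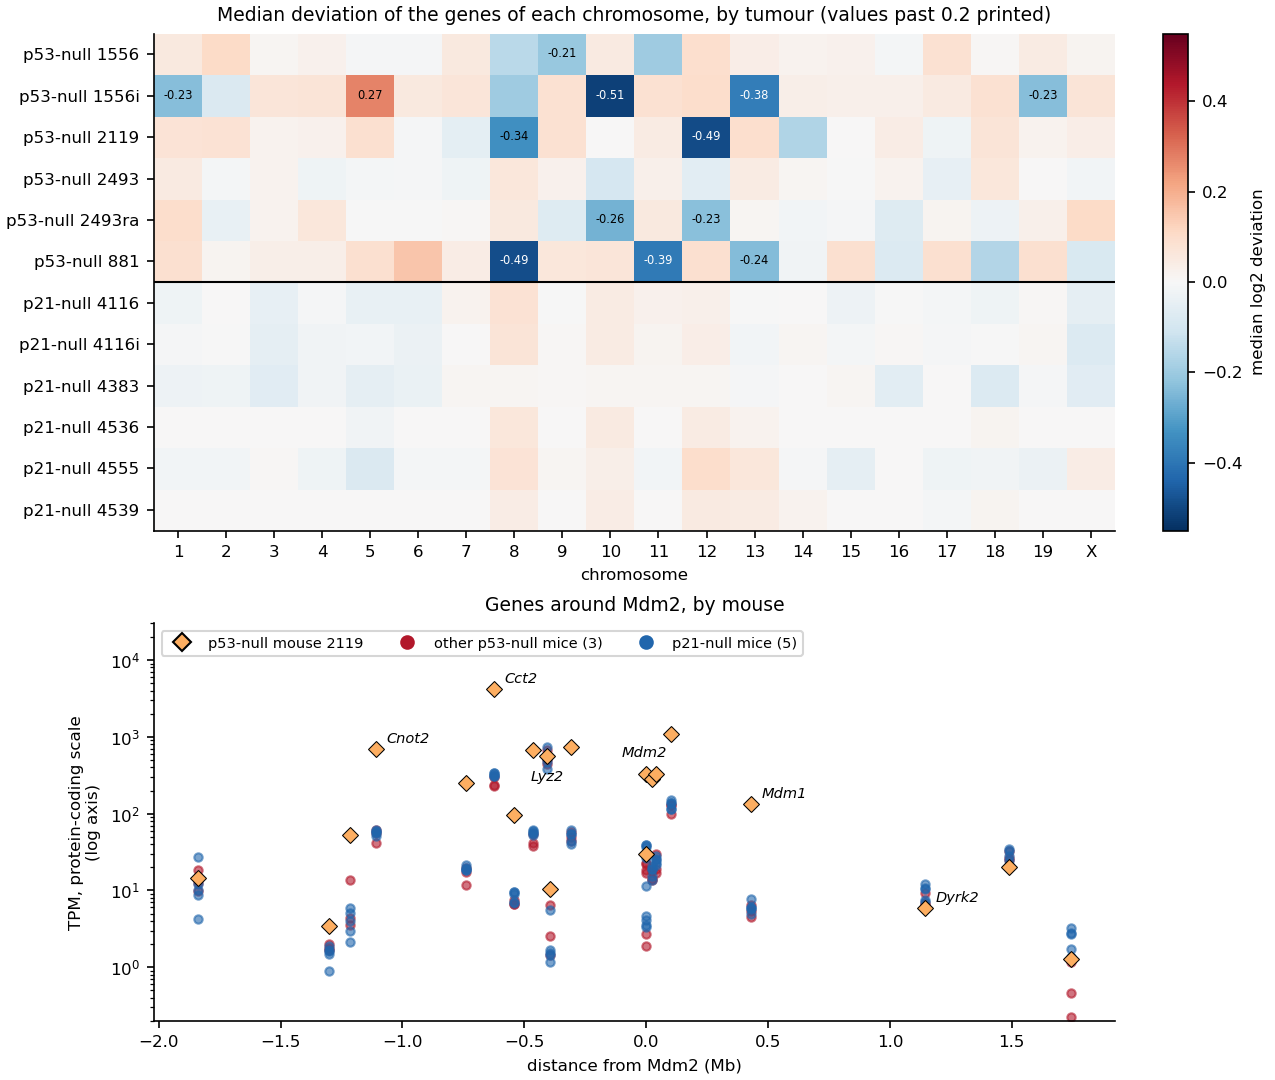
Top, median log2 deviation of the genes of each chromosome (columns) in each untreated tumour (rows; 6 p53-null above 6 p21-null), from the median of the 9 mice and centred by tumour; values past 0.2 are printed and all stand in p53-null tumours. Bottom, TPM of the genes around Mdm2 by distance in Mb on a log axis, where p53-null mouse m2119 stands above the other mice for most genes from Kcnmb4 to Mdm1.

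A narrower departure was found in p53-null mouse m2119 alone, around Mdm2 (chr10:117688875-117710758), and was described after its values were seen. Mdm2 was at 22.4, 326.6, 21.9 and 18.6 TPM in p53-null mice m1556, m2119, m2493 and m881, against 39.2, 28.5, 36.8, 26.1 and 38.5 TPM in p21-null mice. Its neighbours in mouse m2119 were raised with it: Cct2, a chaperonin subunit, stood at 4192 TPM against at most 338 TPM in any other mouse, and Yeats4, a reader of acetylated histones, at 678 against at most 60.4 TPM. Slc35e3, Nup107, Frs2 and Cpsf6 were 13.8, 11.1, 10.1 and 11.8 times the highest other mouse, and Mdm1, 431 kb away, 17.4 times. On one side Cnot2, at -1107 kb, was at 11.2 times and Kcnmb4, at -1215 kb, at 3.80 times (52.6 against at most 13.8 TPM), with Ptprb next at 1.70 times, while on the other side Dyrk2, 1145 kb away, was at 0.483 times the highest other mouse. Between these genes, Lyz2, a lysozyme of macrophages, was at 0.749 times. The other 3 p53-null mice were below every p21-null mouse for Mdm2, itself a p53 target.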

How the data were processed

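RNA-seq was deposited as 1 table per tumour. Per the submitters' processing notes, the authors made the deposited TPM values with RSEM (version not given) on mm10, and per the file names with Ensembl release 79 gene models; no aligner or filter is named in these sources. TPM keep no sequencing depth, so no counting interval can be given. Of 43346 gene identifiers, 42462 matched GENCODE M21 (GRCm38), the source of symbols and gene coordinates.

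TPM were rescaled to the 21461 nuclear protein-coding genes, tumours of 1 title number were averaged as log2(TPM + 1), and genes at 1 TPM or more in at least 4 of 23 null mice were kept. The 4 null groups were fitted together with limma 3.58.1 in R 4.3.3 (trended, robust, 19 residual degrees of freedom) and adjusted by Benjamini-Hochberg over 14166 genes. Wild-type tumours, made with another kit, were left out of this fit. They entered only the alternative with all 6 groups fitted, which adds untreated and treated wild-type tumours. Nuclear protein-coding genes held 8.93% to 10.5% of TPM in untreated and 7.72% to 10.7% in treated wild-type tumours before rescaling. On simulated data from these genes the fit recovered 18% of changes of 0.5 log2, 64% of 1, 82% of 1.5 and 98% of 2, with 8 false calls of 139. The simulation drew normal noise with the same SD for a gene in all groups. In the data the median SD was 0.29 in p53-null and 0.19 in p21-null untreated mice. The simulated shares therefore do not give the recovery or the false calls in the data.

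The groups and the 36 gene lists (870 memberships, 793 tested, 69 below the filter) were chosen with earlier results of these data known, so lists are described by counts and medians, and a planned permutation test of summed markers was not used. Named genes are Trp53, Cdkn1a and Wnt1, the 10 largest differences in each direction with a mean of at least 5 TPM (no predicted genes), up to 4 called members per list or otherwise the one with the smallest p, and the 4 calls nearest to Trp53 and to Cdkn1a. List members named with values but no call were chosen after their values were seen.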

Additional observations from a re-analysis of the deposited data

Results flagged for a closer look

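For 7 named genes the genotype difference itself differed between untreated and treated mice in limma (adjusted p under 0.05), as the untreated minus the treated log2 difference: Rab44 at 1.57, Ccng1 at 1.71, Eda2r at 2.36, Mgmt at 1.86, Slc19a2 at 1.17, Gdf15 at 2.70 and Bax at 1.6. In each of these 7 the genotypes stood further apart in treated mice. The predicted gene Gm4353, left out of the 7 and named after its values were seen, went the other way. Its difference was 2.27 in untreated and 0.02 in treated mice (limma adjusted p = 4.63e-09 for the change). It averaged 4.10 TPM in untreated p53-null mice and 0.053 TPM in untreated p21-null mice. In treated p53-null and p21-null mice it averaged 0.048 and 0.031 TPM.

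In 10 of 144 gene-and-group sets checked, 1 mouse stood apart from the rest of its group, where chance gives about 1 in 20. Among p53-null mice these were m2493 for Mgmt (10.9 TPM), m1556 for Tgtp2 (13.2 TPM), an interferon-induced GTPase, m881 for Psmb8 (80.2 TPM) and for the macrophage enzyme gene Arg1 (15.0 TPM), and m2119 for the receptor gene Erbb3 (28.2 TPM) and for Mdm2 (327 TPM), a gene named after its values were seen. Among p21-null mice they were m4555 for Rnps1 (18.5 TPM) and Trp53 (95.2 TPM), m4116 for Derl3 (5.10 TPM) and m4383 for Dpysl5 (2.80 TPM).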

How the results depend on the processing

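Depth is unknown, the groups hold 4 and 5 mice, and the labels name no batch. Of 45 calls followed gene by gene, 3 of them predicted genes, 25 held whichever mouse was left out, 19 held under every other alternative and 26 with only the 2 untreated groups fitted, and 0 were reversed. The predicted genes Gm8797, Gm4353 and Gm6685, named after their values were seen, were higher in untreated p53-null mice, at 3.94, 2.27 and 1.74. No paired analysis was possible because the groups compared share no title numbers.

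With only the 2 untreated groups fitted, 66 genes passed, 41 of them higher, with 13 within 10 Mb of Cdkn1a, 3 p53 targets lower, and 0 interferon and 1 MHC class I gene higher. With all 6 groups fitted, wild-type tumours included, 273 passed (162 higher, 111 lower, 171 shared with the treated contrast). With sample weights 376 passed (248 higher, 128 lower, 35 near Cdkn1a, 17 interferon and 10 MHC class I genes, 252 shared, 5616 treated calls and 274 for the difference between contrasts). Deposited TPM of all biotypes gave 191 (89 lower, 125 shared). Median-of-ratios scaling gave 64 lower. Interferon calls were 7 with that scaling, 5 with a pseudocount of 0.1, 8 with tumours separate and 6 with the mouse as a random effect, where MHC class I calls were 2. The treated groups fitted alone gave 1581 calls. As means over log2 members, T cell, NK and B cell differences were 0.45, 0.36 and -0.032, against 1.03, 0.96 and -0.58 for sums. The causes were not tested.

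Leaving out each mouse in turn gave 55 to 211 calls, 37 to 124 higher, 18 to 88 lower, 14 to 22 near Cdkn1a, 4 to 6 p53 targets, 1 to 19 interferon genes, 1 to 8 MHC class I genes, 2526 to 3029 treated calls, 62 to 84 for the difference between contrasts and 46 to 116 shared. Chromosome medians against the mean of the own genotype, added after seeing the data, were past 0.2 in 12 p53-null and 0 p21-null values.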
